A study of Mus musculus with 6 samples.

Results

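The 9 genes described here encode the transforming growth factor beta (TGF beta) ligands, their receptors and members of the latent TGF beta binding protein family, called latency proteins here. They are Tgfb1, Tgfb2 and Tgfb3, Tgfbr1, Tgfbr2 and Tgfbr3, and Ltbp1, Ltbp2 and Ltbp3. They were chosen by symbol from a table of 20893 genes, and each symbol matched 1 row. RNA came from mouse hearts labelled C57BL6/J, 3 libraries from germline knockouts of Rbpms (labelled R1KO) and 3 from wildtype. The series title places these hearts in the embryo and its design text at the neonatal stage, with littermates as controls. No label gives the age or the deleted part of Rbpms, or states that each library is a separate animal. Any p-value here therefore speaks of library spread, part of which may be technical. Xist and Y-linked reads, given below, differed within each group, so neither group came from a single animal.

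TGF beta is made as a precursor that is cut and secreted with its own propeptide still wrapped around it. A latent TGF beta binding protein (Ltbp) ties this complex to fibrillin fibres of the matrix, and integrins, thrombospondin or proteases release the ligand. The free ligand binds the type II receptor Tgfbr2, often presented by the co-receptor Tgfbr3, and the type I receptor Tgfbr1 then phosphorylates Smad2 and Smad3. In the developing heart the pathway is known for its part in forming the cushions that become valves, in the epicardium and in matrix deposition.

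The value of a gene is its read number scaled by its library's factor, then rounded to a whole number. Undoing the scaling gave 4163230 to 5805710 reads per library. Rbpms, the targeted gene, had 375, 340 and 507 in the knockout (libraries are always listed as replicates 1, 2 and 3) and 1182, 1176 and 1317 in the wildtype, so its values followed the labels. All 10 cardiomyocyte markers examined were present, with summed values of 21760 to 26623 per library. Knockout replicate 3 and wildtype replicate 1 had high Xist and almost no reads of Y-linked genes, and the other 4 libraries the reverse. Knockout replicate 3 also stood apart in erythroid markers (10 of 10 present), at a sum of 2354 against 863 to 1081 in the other libraries. Its sum of 10 epicardial markers, all present, was 1407 against 1928 to 2265. These markers were split in that library. Upk3b at 79, Msln at 136, Lrrn4 at 22, Aldh1a2 at 132, Krt19 and Upk1b lay below every wildtype library. Krt18 at 316, Wt1 at 245 and Krt8 at 78 lay above every wildtype library, and Tbx18 lay within the wildtype range.

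Promoters of 7 of the 9 genes were matched in RefSeq windows of 300 bases, from 250 before to 50 after the gene's start, in the build GRCm38.p6. The following 4 are shown because they belong to the ligands with the smallest and the largest p, the receptor whose groups did not overlap, and Fstl3, a TGF beta family antagonist that rose. Capitals mark matches on either strand to the Smad core motif CAGAC, the cyclic AMP response element TGACGTCA, the E-box CACGTG, the AP-1 site TGANTCA, the GC box GGGCGG and the TATA box TATAAA. Neighbouring GC boxes can overlap each other, and runs of capitals can hold more than 1 match.
Tgfb1 (chr7:25686752-25687051, forward strand): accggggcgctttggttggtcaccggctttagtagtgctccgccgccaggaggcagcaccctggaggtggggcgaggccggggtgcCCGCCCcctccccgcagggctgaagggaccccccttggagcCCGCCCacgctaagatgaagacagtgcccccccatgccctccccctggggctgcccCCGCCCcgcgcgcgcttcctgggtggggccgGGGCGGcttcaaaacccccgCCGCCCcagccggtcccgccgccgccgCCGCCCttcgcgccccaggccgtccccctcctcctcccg
Tgfb2 (chr1:186705940-186706239, reverse strand): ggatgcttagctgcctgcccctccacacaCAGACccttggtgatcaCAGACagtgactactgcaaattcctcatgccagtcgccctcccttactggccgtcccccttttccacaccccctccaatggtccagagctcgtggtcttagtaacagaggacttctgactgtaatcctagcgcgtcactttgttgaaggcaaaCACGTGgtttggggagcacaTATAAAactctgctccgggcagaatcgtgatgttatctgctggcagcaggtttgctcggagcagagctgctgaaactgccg
Tgfbr2 (chr9:116175314-116175613, reverse strand): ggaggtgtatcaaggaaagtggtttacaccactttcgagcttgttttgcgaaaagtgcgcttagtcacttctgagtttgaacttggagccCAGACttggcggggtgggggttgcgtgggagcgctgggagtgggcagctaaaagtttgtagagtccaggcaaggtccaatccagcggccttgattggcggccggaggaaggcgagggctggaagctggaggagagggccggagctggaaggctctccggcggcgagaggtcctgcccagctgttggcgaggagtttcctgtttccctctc
Fstl3 (chr10:79777024-79777323, forward strand): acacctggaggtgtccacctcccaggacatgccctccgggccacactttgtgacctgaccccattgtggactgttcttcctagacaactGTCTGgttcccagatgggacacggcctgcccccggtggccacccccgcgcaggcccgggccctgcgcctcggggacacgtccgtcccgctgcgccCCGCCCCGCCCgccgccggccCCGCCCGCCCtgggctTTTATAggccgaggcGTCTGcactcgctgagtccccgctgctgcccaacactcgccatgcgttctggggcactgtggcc
The ligand genes differed in these windows. Tgfb1 held 6 GC boxes and none of the other motifs, and 77.0% of its window was G or C. Tgfb2 was 54.3% G or C and held a TATA box starting 31 bases before the start, an E-box 51 bases before it and 2 Smad core motifs. Tgfbr2 held 1 Smad core motif and Fstl3 held 2. Of all 32851 promoter windows, 49.6% held the Smad core motif, 35.7% the GC box, 13.6% the TATA box, 7.81% the AP-1 site, 7.15% the E-box and 1.79% the cyclic AMP response element. A match describes the letters and not a bound site.

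All 9 genes were measured well above the lowest level tested, which was a value of 10 or more in 3 or more libraries. None of the 9 changed between knockout and wildtype hearts. The test was limma on log2(value + 1) over 14974 genes, with a Benjamini-Hochberg adjusted p under 0.05, and 0.942% of all tested genes passed it. Of the 9, 3 had an unadjusted p under 0.05, each with the higher mean in the knockout (Tgfb2, Tgfb3 and Tgfbr2), where 16.4% of all genes had such a p and 8.54% had it with the higher mean in the knockout. By voom on recovered reads 0 passed as well, with 2 at an unadjusted p under 0.05. That count was not stable: over 17 alternatives it ran from 0 to 3. It was 0 without wildtype replicate 3, with the replicate number as a block and without trend and robust moderation. It was 1 without knockout replicate 2, knockout replicate 3 or wildtype replicate 1, with upper-quartile scaling and in male libraries only. A fold change above 0 was fitted for 7 of the 9, where 49.8% of all tested genes had one, and the median of the 9 was 0.17 against -0.000893 for all tested genes. The knockout and wildtype libraries did not overlap in 1 of the 9, where 22% of all genes showed this.

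**Figure D1:**
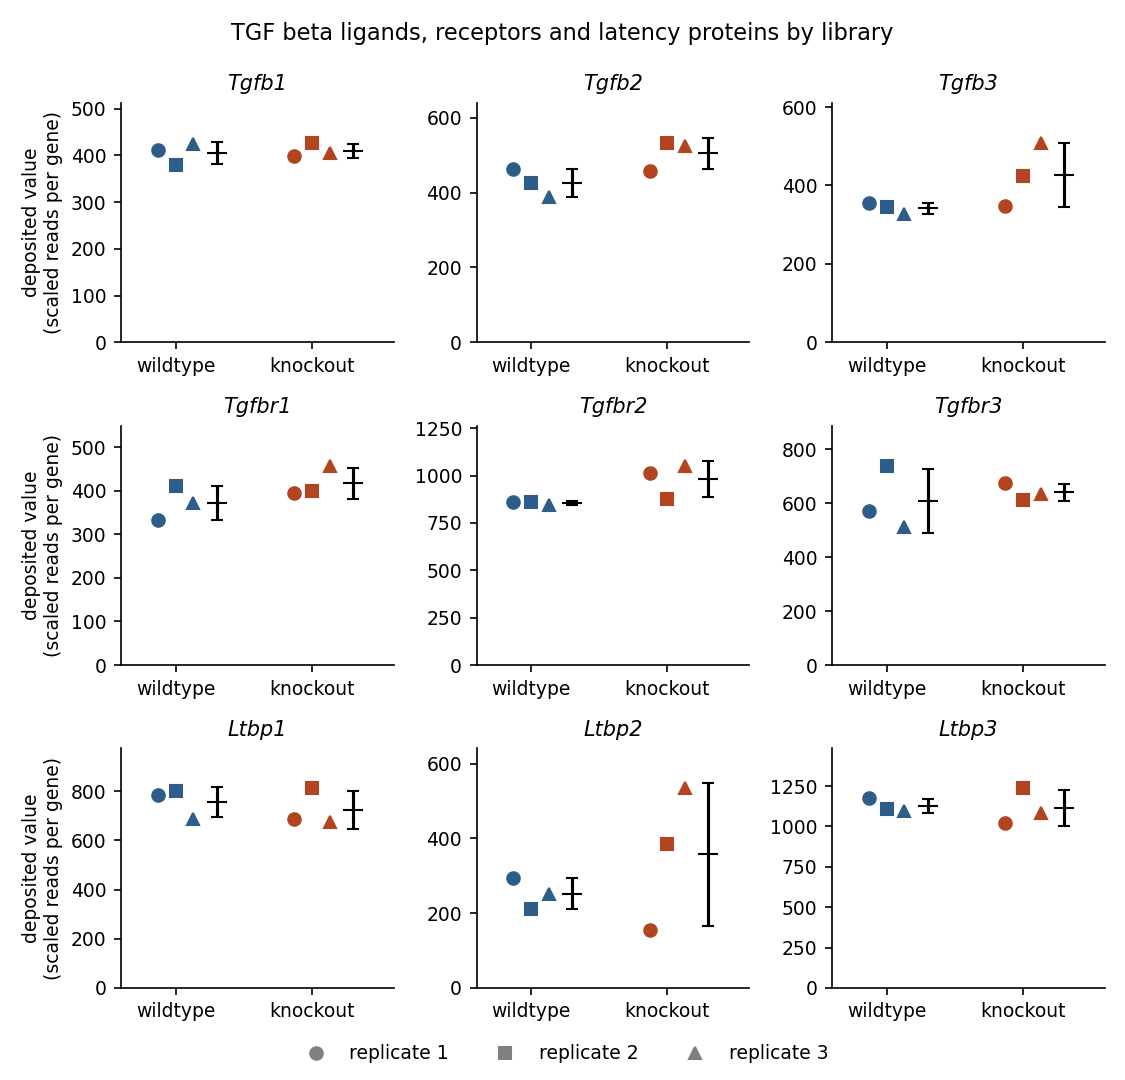
Deposited values (scaled reads per gene, vertical axes from 0) of the 9 genes in each wildtype (blue) and knockout (red) library, with marker shapes for replicate numbers and bars for the mean ± SD of 3 libraries. Only in Tgfbr2 do all knockout libraries (877 to 1053) lie above all wildtype libraries (842 to 863), and Ltbp2 has the widest spread in the knockout (154 to 534).

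Among the ligands, Tgfb1, the form made by many cell types including platelets and immune cells, differed least. It maps to chromosome 7 from 25386427 to 25404502 on the forward strand of mm39. Its values were 399, 427 and 404 in the knockout and 412, 379 and 425 in the wildtype. The groups overlapped throughout. The means were 410 ± 14.9 and 405 ± 23.7 (SD, n = 3 each), which limma fitted as 0.02 on the log2 scale (SE 0.07, adjusted p = 0.928). Its 95% interval ran from -0.15 to 0.18.

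Tgfb2, which in mice is needed for normal septation and outflow tract formation, maps to chromosome 1 from 186354989 to 186438186 on the reverse strand. It held 457, 533 and 523 in the knockout and 463, 426 and 388 in the wildtype. Knockout replicates 2 and 3 lay above all wildtype libraries, and knockout replicate 1 lay just under wildtype replicate 1. Fitted by limma, the log2 difference was 0.24 (SE 0.09, 95% interval 0.04 to 0.45, unadjusted p = 0.0238, adjusted p = 0.220). Its adjusted p stayed between 0.182 and 0.487 over 17 alternative fits. On the opposite strand the long noncoding gene Gm35546 overlapped it, with a mean value of 36.7.

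Tgfb3, known for its role in palate fusion and expressed in heart mesenchyme, maps to chromosome 12 from 86103519 to 86125815 on the reverse strand. Its values were 347, 424 and 509 in the knockout, and 354, 345 and 327 in the wildtype. The wildtype libraries were close together, while the knockout libraries ran from the wildtype level to well above it. Knockout replicate 3 was the highest. In the limma fit the log2 difference came to 0.30 (SE 0.13, unadjusted p = 0.0416, adjusted p = 0.280), and it was 0.17 without knockout replicate 3 and 0.44 without knockout replicate 1. Ttll5, on the opposite strand, overlaps Tgfb3 and had a mean value of 264.

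Per kilobase of exon, with all annotated exons of a gene joined, Tgfb3 had the highest value of the 3 ligands in every library. Which transcripts the hearts used was not measured, so this order and these shares depend on the annotated lengths. Its share of the summed level per kilobase of the 3 ligands was 42.6% ± 3.88 in the knockout and 39.7% ± 0.901 in the wildtype (SD, n = 3 each), with libraries from 39.4% to 46.9% and from 39.0% to 40.7%. The share of Tgfb1 was 27.8% ± 2.71 against 31.6% ± 2.14, and that of Tgfb2 was 29.6% ± 1.29 against 28.8% ± 1.57. All 3 shares overlapped between the groups. The summed level was 260.6, 302 and 321 per kilobase in the knockout and 266, 251 and 248 in the wildtype, so knockout replicate 1 lay inside the wildtype range. These are descriptions with no test.

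Of the receptors, Tgfbr2, the ligand-binding type II kinase, was the 1 gene of the 9 whose groups did not overlap. It maps to chromosome 9 from 115913361 to 116004428 on the reverse strand. It held 1016, 877 and 1053 in the knockout against 863, 860 and 842 in the wildtype. Knockout replicate 2 stood only slightly above the highest wildtype library. Limma put the log2 difference at 0.20 (SE 0.08, 95% interval 0.02 to 0.37, unadjusted p = 0.0316, adjusted p = 0.246). The lowest adjusted p over the alternatives was 0.0660 and the highest 0.551.

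The wildtype spread of Tgfbr2 was small, with an SD of 0.02 on the log2 scale, and of the 1000 tested genes nearest to it in mean value 4.80% had a smaller one. Its knockout SD was 0.14, above that of 78.9% of these genes. Markers of endothelium and endocardium, cells that carry this receptor, were also at higher sums in the knockout. The sums were 9066 to 9583 against 8392 to 8618 (10 of 10 markers present). Of these 10 markers 0 changed (limma), 8 had a fold change above 0, and Cdh5 and Egfl7 were at -0.04 and -0.02. The separation of the sums leaned on Npr3, at 910, 619 and 996 against 502, 774 and 459, whose own groups overlapped. Sums of valve and cushion mesenchyme markers were higher too, at 4685 to 5270 against 4418 to 4609 (10 of 10 present). All 10 had a fold change above 0 and 0 changed (limma). Postn, with the largest values of these 10, was at a log2 difference of 0.01. The separation leaned in part on Vcan, at 1049, 1113 and 1097 against 926, 891 and 868, a gene also listed below as TGF beta responsive. The part of these cell types in the values of Tgfbr2 was not tested. In whole hearts more cells of a type and more RNA per cell cannot be told apart.

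Tgfbr1, the type I kinase that phosphorylates Smad2 and Smad3, maps to chromosome 4 from 47353222 to 47414931 on the forward strand. It held 395, 399 and 458 in the knockout and 332, 410 and 372 in the wildtype. Knockout replicate 3 was the highest and wildtype replicate 1 the lowest. These were the libraries with high Xist, and among the other 4 the knockout values of 395 and 399 lay between the wildtype values of 372 and 410. Fitted by limma, the log2 difference was 0.17 (SE 0.10, adjusted p = 0.420). The value rested on those libraries: it came to 0.10 if knockout replicate 3 was left out, to 0.09 if wildtype replicate 1 was, and to 0.02 in the 4 male libraries. With 1 knockout and 1 wildtype library of high Xist, sex and these single libraries cannot be told apart.

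Tgfbr3, also called betaglycan, presents ligands, Tgfb2 above all, to the signalling receptors. It maps to chromosome 5 from 107254436 to 107437495 on the reverse strand. Its values were 673, 611 and 634 in the knockout and 570, 739 and 510 in the wildtype. The knockout libraries all lay within the wildtype range. The wildtype SD on the log2 scale was 0.27, above that of 98.8% of the 1000 genes nearest in mean value. In the limma fit the log2 difference came to 0.09 (SE 0.13, adjusted p = 0.763), and it turned to -0.02 without wildtype replicate 3.

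Of the latency proteins, Ltbp1 and Ltbp3 bind latent TGF beta, and Ltbp2 is known to bind fibrillin but not latent TGF beta. Ltbp1, on chromosome 17 from 75312563 to 75699507 on the forward strand, held 687, 812 and 674 in the knockout and 784, 802 and 688 in the wildtype. Knockout replicate 2 was the highest of the 6 libraries and the other knockout libraries the lowest. Limma put the log2 difference at -0.07 (SE 0.09, adjusted p = 0.764). Ltbp3, on chromosome 19 from 5790932 to 5808560 on the forward strand, held 1021, 1236 and 1080 against 1173, 1105 and 1094. Fitted by limma, the log2 difference was -0.02 (SE 0.08, adjusted p = 0.928), and the knockout libraries spanned the wildtype range on both sides.

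Ltbp2 was the most variable of the 9 in the knockout, while in the wildtype Tgfbr3 had the larger SD. It maps to chromosome 12 from 84829986 to 84923306 on the reverse strand. Its values were 154, 385 and 534 in the knockout, and 294, 210 and 252 in the wildtype. Knockout replicate 1 was below every wildtype library and knockout replicates 2 and 3 were above every one. Against the wildtype mean the knockout libraries stood at -0.69, 0.62 and 1.09 on the log2 scale. The SD of its log2 values was 0.93 in the knockout, above that of 99.7% of the 1000 tested genes nearest in mean value, and 0.24 in the wildtype, above 97.3%. In the limma fit the log2 difference came to 0.34 (SE 0.45, 95% interval -0.75 to 1.43, adjusted p = 0.760). Without knockout replicate 3 it was -0.04 and without knockout replicate 1 it was 0.86 (adjusted p = 0.143). In knockout replicate 3, where Ltbp2 was highest, the erythroid and epicardial marker sums given above also stood apart, though single epicardial markers went either way. The part of these markers in the values of Ltbp2 was not tested.

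**Figure D2:**
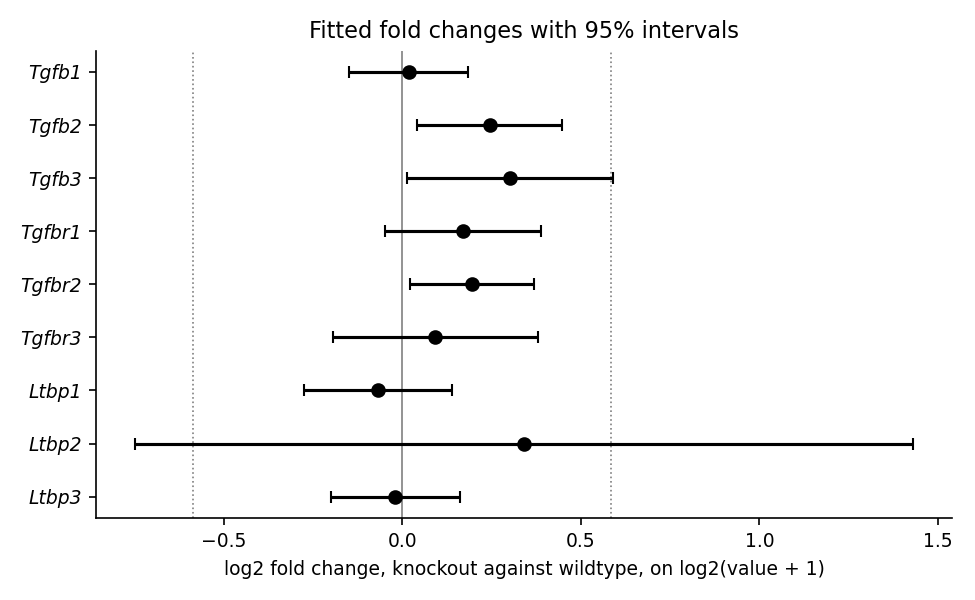
Log2 fold changes of the 9 genes, knockout against wildtype (points), with unadjusted 95% intervals from limma (bars), and dotted lines at a 1.5-fold change in either direction. The intervals of 7 genes lie between the dotted lines, that of Tgfb3 just crosses the upper line at 0.59, and that of Ltbp2 runs from -0.75 to 1.43.

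The fitted intervals show what these libraries could resolve. For 7 of the 9 genes the 95% interval excluded a 1.5-fold change in either direction, a log2 change of 0.58. For Tgfb3 the upper bound was 0.59, and for Ltbp2 both bounds passed this size. The knockout values of Tgfb3 and Ltbp2 had the same order of libraries, replicate 1 lowest and replicate 3 highest, and over the 6 libraries their log2 values had a Pearson correlation of 0.855. Tgfb2 and Tgfb3 had one of 0.851, and Tgfb1 and Tgfbr3 one of -0.854. These were the furthest from 0 of the 36 pairs, which share libraries and group labels, and are given as descriptions.

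**Figure D3:**
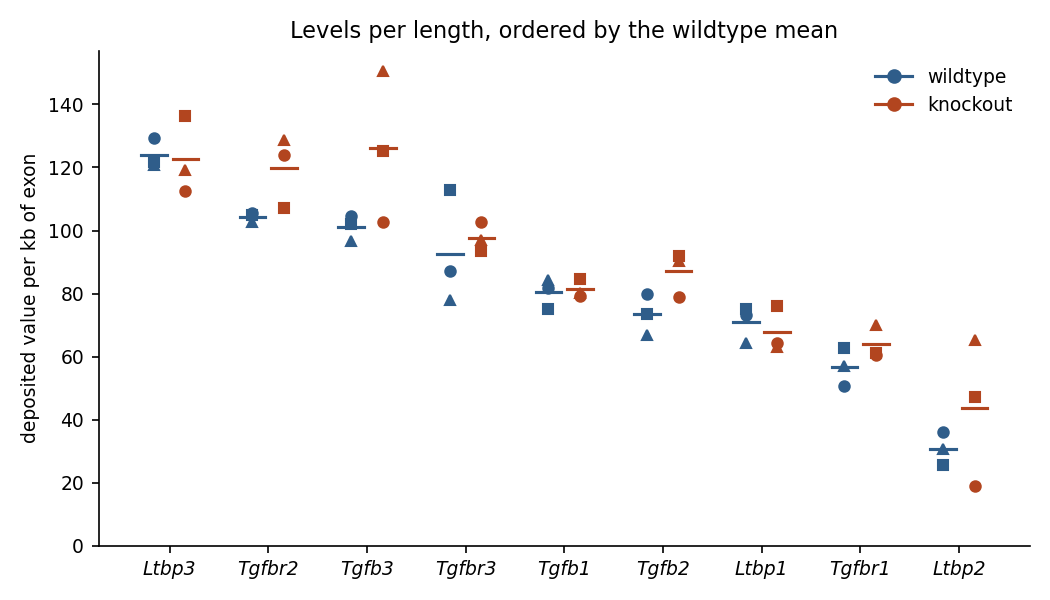
Deposited values per kilobase of exon (vertical axis from 0) of the 9 genes in wildtype (blue) and knockout (red) libraries, ordered by the wildtype mean, with horizontal bars for group means and marker shapes for replicates as in the plot by library. Ltbp3 is highest in the wildtype at 124 and Ltbp2 lowest at 30.8, and Tgfb3 has the highest mean in the knockout at 126.

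Divided by the joined length of all annotated exons, the wildtype means of the 9 genes ran from 30.8 to 124. This order depends on those lengths as well as on the reads. In the wildtype the order per kilobase was Ltbp3 at 124 ± 4.72 (SD, n = 3, as for each level here), Tgfbr2 at 104 ± 1.39, Tgfb3 at 101 ± 4.06, Tgfbr3 at 92.6 ± 18.1 and Tgfb1 at 80.4 ± 4.70. Below these came Tgfb2 at 73.5 ± 6.48, Ltbp1 at 70.9 ± 5.73, Tgfbr1 at 56.8 ± 5.97 and Ltbp2 at 30.8 ± 5.13. Only Ltbp3, Tgfbr1 and Ltbp2 were separated from their neighbours in this order in all libraries. From Tgfbr2 to Ltbp1, each gene overlapped the next. In the knockout Tgfb3 had the highest mean, 126 ± 24.0, but its libraries overlapped those of Ltbp3 at 123 ± 12.2. Ltbp2 was lowest there too, at 43.7 ± 23.4, and overlapped Tgfbr1 at 63.9 ± 5.40. Per kilobase, the type I receptor was below the type II receptor in all 6 libraries.

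The genes whose values over the 6 libraries were most like those of the 3 genes with the smallest p were sought among 9921 tested genes with a mean value of at least 100. Nearest to Tgfb2 were Lima1, an actin-bundling protein (r = 0.985, Pearson, log2 values), the sorting nexin Snx8 (0.983) and the kinase Limk2 (0.981). Nearest to Tgfbr2 were Epas1, a hypoxia-inducible transcription factor of endothelium (0.999), Tmem71 (0.996) and Atg2a (0.990). Nearest to Tgfb3 were the ligand Bmp4 (0.993), the proprotein convertase Pcsk5 (0.992) and Mrc2, a collagen receptor (0.990). None of these 9 changed, with adjusted p from 0.166 to 0.457 (limma). With 6 libraries and this many candidates, high correlations are given as a description of likeness only.

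Bmp4 had 87, 111 and 151 in the knockout and 87, 88 and 83 in the wildtype, with its knockout libraries in the same order as those of Tgfb3. For Ltbp2, added to this search once its values were known, the nearest genes were B4galt5 (0.987), Clstn1 (0.980) and Chn1 (0.972). B4galt5 held 367, 409 and 425 in the knockout and 396, 376 and 395 in the wildtype, a far smaller spread than that of Ltbp2 in the same order of libraries.

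**Figure D4:**
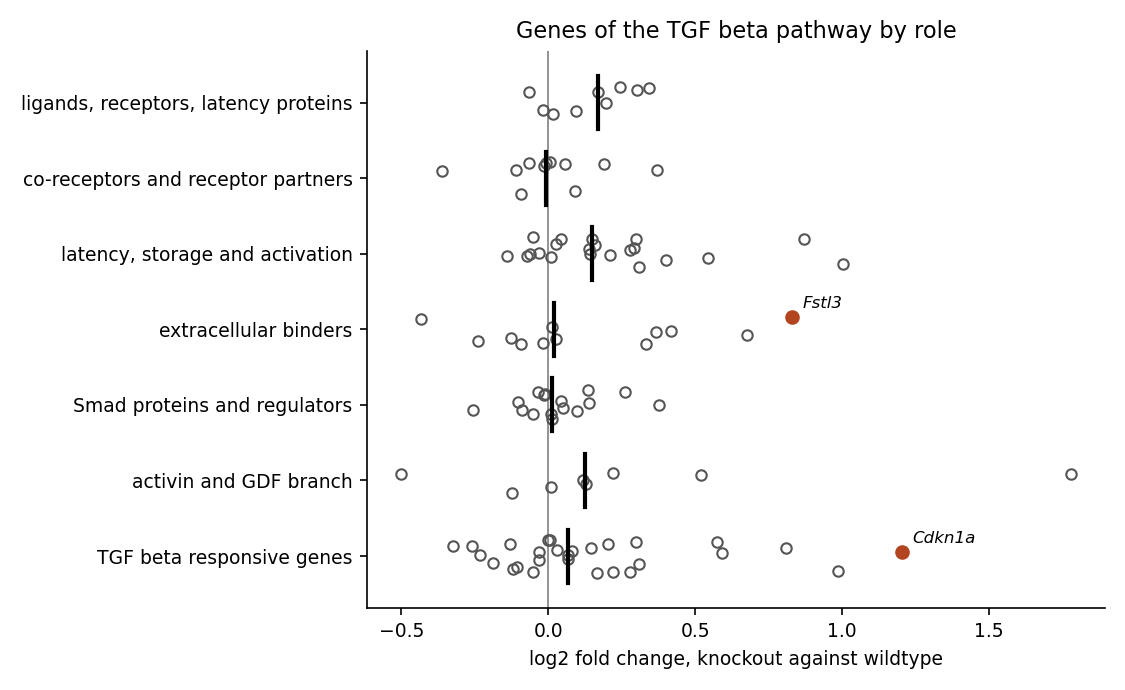
Log2 fold changes, knockout against wildtype, of tested genes of the TGF beta pathway by role (rows, with random vertical spread), with black bars for row medians and filled points for genes with an adjusted p under 0.05 (limma). Fstl3 at 0.83 and Cdkn1a at 1.20 are filled, and all 9 ligand, receptor and latency genes are open.

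The rest of the pathway was described with 6 lists of 104 genes, of which 96 were tested. Of these 2 rose and 0 fell (limma, adjusted p under 0.05), an unadjusted p under 0.05 was found for 22 higher and 3 lower genes, and the median log2 fold change was 0.05. Among all tested genes 0.508% rose, 0.434% fell, 8.54% had an unadjusted p under 0.05 with the higher mean in the knockout and 7.86% with the lower. Fstl3 rose, an extracellular antagonist that binds activin and related ligands. Cdkn1a rose too, which makes p21, a brake on the cell cycle, and is induced both by TGF beta and by p53.

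Fstl3 held 239, 218 and 292 in the knockout and 143, 150 and 125 in the wildtype. All knockout libraries lay above all wildtype libraries. Limma put the log2 difference at 0.83 (SE 0.13, adjusted p = 0.0308). Its adjusted p was 0.105 without knockout replicate 1 and, with wildtype replicate 1, 2 or 3 left out, 0.158, 0.0974 and 0.193. Over 17 alternatives it ran from 0.00419 to 0.193. Voom on recovered reads gave 0.0571. Fstl3 maps to chromosome 10 and was the 1 changed gene of 12 extracellular binders, where the median was 0.02.

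In the same list the small leucine-rich proteoglycan Aspn, which binds TGF beta, stood at 669, 675 and 846 against 542, 591 and 598 (log2 0.33, adjusted p = 0.142). The proteoglycans Dcn, Bgn and Fmod, which also bind the ligand, had log2 fold changes of -0.13, 0.03 and -0.43 (adjusted p = 0.490, 0.898 and 0.389). Igfbp3, an IGF binding protein, held 620, 371 and 688 in the knockout and 311, 379 and 329 in the wildtype. Its knockout replicate 2 lay within the wildtype range. The genes of this paragraph were singled out after their values were seen.

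Cdkn1a held 677, 571 and 807 in the knockout and 270, 322 and 293 in the wildtype, with no overlap. Fitted by limma, the log2 difference was 1.20 (SE 0.13, adjusted p = 0.0124). The adjusted p was 0.0671 without knockout replicate 1 and 0.103, 0.0967 and 0.143 without wildtype replicates 1, 2 and 3. It was the 1 changed gene of 28 tested genes known to respond to TGF beta, whose median was 0.07, and 18 of the 28 had a fold change above 0, where 49.8% of all tested genes had one. Groups did not overlap in 11 of them, against 22% of all genes. In 9 of them the knockout was the higher group, against 11% of all genes.

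Other genes of that list, singled out after their values were seen, had fold changes of either sign. Ccn2, a matricellular protein induced by TGF beta and by YAP, held 1214, 956 and 1617 in the knockout and 665, 641 and 566 in the wildtype. Its adjusted p was 0.0615 (log2 0.99), and it passed in 4 of 17 alternatives, those without knockout replicate 2 or 3, in male libraries (0.00500) and when sex was fitted (0.0207). Over all 17 its adjusted p ran from 0.00230 to 0.255.

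The fibrillar collagens Col1a1, Col1a2 and Col3a1 had log2 fold changes of -0.11, -0.05 and -0.13, and Postn, a matricellular protein of fibroblasts, one of 0.01 (adjusted p from 0.520 to 0.982). Acta2, smooth muscle actin, held 863, 912 and 875 in the knockout, below 1109, 986 and 1238 in the wildtype (log2 -0.32, adjusted p = 0.110). Other genes of smooth muscle contraction, looked up after their values were seen, did not all go the same way. Tagln, also on the TGF beta responsive list, held 246, 362 and 512 against 381, 343 and 373 (limma, log2 -0.03, adjusted p = 0.965). Its knockout replicate 3 was the highest of the 6 libraries. Myh11 and Cnn1 were at lower values in every knockout library. Myh11, smooth muscle myosin, held 171, 227 and 216 against 303, 339 and 289 (log2 -0.61, adjusted p = 0.0570), and Cnn1, calponin, held 38, 88 and 112 against 202, 155 and 195 (log2 -1.33, adjusted p = 0.156). The pericyte proteoglycan Cspg4 rose, at 1096, 1246 and 1278 against 958, 858 and 860 (log2 0.43, adjusted p = 0.0472), and kept that call in 8 of 17 alternatives. Its adjusted p was 0.0915 with knockout replicate 1 left out and 0.158, 0.144 and 0.223 with wildtype replicate 1, 2 or 3 left out. Over the alternatives Myh11 ran from 0.00951 to 0.261, passing in 6, and Cnn1 from 0.0893 to 0.454, passing in 0. The sum of 10 smooth muscle and pericyte markers, all present, holds Acta2, Tagln, Myh11, Cnn1 and Cspg4. It overlapped between the groups, at 7589 to 8051 against 7670 to 8139. Its part in the values of Acta2 was not tested.

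Genes that store or release latent TGF beta had the highest median of the 6 lists, 0.15. Of 21 tested genes 0 changed by limma or voom, and 6, all higher, had an unadjusted p under 0.05. Among all tested genes 0.942% changed (limma), 16.4% had such a p and 8.54% had it with the higher mean in the knockout. In this list the genes with the smallest p were subunits of the alpha V integrins, which pull the ligand out of its latent complex. Itgav, the alpha V chain, stood at 474, 466 and 520 in the knockout and 350, 400 and 356 in the wildtype (log2 0.40, adjusted p = 0.0571). Itgb5, a partner chain, stood at 979, 931 and 1022 against 806, 790 and 798 (log2 0.29, adjusted p = 0.0622). For both genes every knockout library was above every wildtype library.

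Itgb3, another partner, held 250, 138 and 253 against 100, 114 and 94 (log2 1.00, adjusted p = 0.0881). Itgb3 is also a platelet gene, and the summed platelet markers were at 162 to 185 in the knockout and 135 to 149 in the wildtype, with 5 of 10 absent or under a value of 10. Their part in the values of Itgb3 was not tested. Thrombospondin 1 (Thbs1), which can activate the latent complex, held 761, 865 and 1398 against 583, 560 and 462 (log2 0.87, adjusted p = 0.150). Knockout replicate 3 was far above the others. Without it Thbs1 passed at a log2 difference of 0.61 (limma, adjusted p = 0.00581), as it did in male libraries (0.00787) and with sex fitted (0.0360), within 0.00581 to 0.399 over 17 alternatives. Ltbp4, the remaining family member, and Fbn1, the fibrillin to which Ltbp proteins attach, had log2 fold changes of 0.03 and 0.14 (adjusted p = 0.892 and 0.304). Thbs1, Ltbp4 and Fbn1 were singled out after their values were seen.

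Of 11 co-receptors and receptor partners 0 changed by limma or voom, and 3 had an unadjusted p under 0.05, 2 of them higher. The share of all tested genes with such a p was 16.4%, and 8.54% had it with the higher mean in the knockout. The median of the 11 was -0.01. Both higher genes are known from endothelium. Acvrl1, the type I receptor ALK1, stood at 460, 433 and 552 in the knockout and 381, 370 and 361 in the wildtype (log2 0.37, adjusted p = 0.104). Its co-receptor endoglin (Eng) stood at 1697, 1628 and 1687 against 1466, 1409 and 1526 (log2 0.19, adjusted p = 0.165). In both, no libraries overlapped. The endothelial marker sums given beside Tgfbr2 were also higher in the knockout, but their separation leaned on Npr3. Their part in the values of Acvrl1 and Eng was not tested. Cd109, a co-receptor that dampens signalling, stood at 160, 178 and 170 against 211, 200 and 245 (log2 -0.36, adjusted p = 0.147).

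Within the cell, 0 of 16 Smad genes and regulators changed by limma or voom, and 2, both higher, had an unadjusted p under 0.05. Such a p was found for 16.4% of all tested genes, and for 8.54% with the higher mean in the knockout. The median of the 16 was 0.01. The transducers Smad2, Smad3 and Smad4, singled out for their role, had log2 fold changes of 0.01, -0.09 and 0.01 (adjusted p = 0.944, 0.665 and 0.97). The inhibitory Smads had the smallest p. Smad6, which mainly restrains BMP signalling, stood at 337, 340 and 438 in the knockout and 282, 265 and 306 in the wildtype (log2 0.38, adjusted p = 0.149). Smad7, which restrains TGF beta receptors, stood at 340, 326 and 392 against 321, 302 and 261 (log2 0.26, adjusted p = 0.253). The phosphatase Ppm1a followed with a log2 fold change of 0.13 (adjusted p = 0.310).

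The activin and GDF branch, which shares Smad2 and Smad3 with TGF beta, had 8 tested genes and 0 changed by limma or voom. An unadjusted p under 0.05 was found for 2, both higher, where 16.4% of all tested genes had one and 8.54% had it with the higher mean in the knockout. The stress-induced ligand Gdf15 stood at 22, 33 and 37 in the knockout and 6, 6 and 14 in the wildtype (log2 1.78, adjusted p = 0.0648). Inhba, which encodes the activin A subunit, stood at 176, 245 and 213 against 155, 168 and 119 (log2 0.52, adjusted p = 0.159). In both genes the lowest knockout library was above the highest wildtype library, though Gdf15 rests on few reads. Gdf11 stood at 76, 131 and 82 against 166, 107 and 132 (log2 -0.50, adjusted p = 0.329).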

How the data were processed

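Heart mRNA was made into stranded libraries and read from 1 end, per the labels' protocols. DESeq2 1.36.0, featureCounts 2.0.4, Picard 3.0.0, STAR 2.7.11a, Trimmomatic 0.39 and the build mm39 are named, without role or order, in the submitters' processing notes. The unit of the deposited table is called a score here, and its entries values in the text, because its whole numbers are reads that the authors scaled per library and rounded, as read from whole numbers that never occurred, or occurred doubly often, at regular steps. Factors of 0.8524 to 1.1798 were estimated from values under 400 and gave the recovered reads. No count test was run, since these are not raw counts. No strand setting for counting is given in the sources used here, so reads of genes that overlap on opposite strands may be mixed. No gene averaged more than 0.925 recovered reads per exon base, while the 9 genes lay between 0.0382 and 0.124. What Picard was used for is not stated, and if duplicate reads were removed, the differences of abundant genes would be compressed.

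The 14974 genes reaching a value of 10 in 3 or more of the 6 libraries were tested on log2(value + 1) with limma 3.58.1 (statmod 1.5.0, R 4.3.3), using trend and robust moderation, no covariate and Benjamini-Hochberg adjustment over all of them. Fold changes on this scale understate those of low genes. The fit was tested on simulated data. The genes and the lists were chosen with earlier results of these data known, and lists were counted, not tested. Named by rule were the 9 genes, Rbpms, the changed genes of each pathway list or else the 3 with the smallest p, and the 3 genes most like each of the 3 members with the smallest p. Exon lengths came from GENCODE M21 (GRCm38), matched by identifier for 98.2% of tested genes. They join all annotated exons of a gene, so they can exceed the length of the transcript in use. Alternatives covered scaling, filter, pseudocount, moderation, voom, replicate block, sex and left-out libraries. The fit of male libraries only was added after seeing the data.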

Additional observations from a re-analysis of the deposited data

How the results depend on the processing

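None of the 9 genes passed the threshold under any of the 17 alternatives (lowest adjusted p 0.0660), and 9 of their 153 alternative values changed sign. In male libraries only, Ltbp1 was at 0.00788 and Ltbp3 at 0.0310, and upper-quartile scaling put Tgfb1 at -0.0193. Leaving out 1 library gave -0.0300 to 0.0524 for Tgfb1 (below 0 without knockout replicate 2 or wildtype replicate 2) and -0.0228 to 0.244 for Tgfbr3 (below 0 without wildtype replicate 3). The same step gave -0.0353 to 0.858 for Ltbp2 (below 0 without knockout replicate 3) and -0.0974 to 0.0404 for Ltbp3 (above 0 without replicate 1 of either group).

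The count of changed genes (141 of all, 2 of the other pathway genes) was 218 and 4 with no filter on low values, 24 and 0 without trend and robust moderation, 68 and 1 with voom, 223 and 5 with a term for sex, and 256 and 6 in male libraries only. It was 78 of all genes with a mean value of at least 50. Leaving out 1 library gave 0 to 727 of all genes, 0 to 12 of the pathway genes and 0 to 0 of the 9. Of all genes 6, 510 and 727 passed without knockout replicates 1, 2 and 3, and 3, 0 and 0 without wildtype replicates 1, 2 and 3. For these fits the cause was not tested.

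With the replicate number as a block 23 genes passed, 1 of the pathway and 0 of the 9. The labels give the number no meaning. Same-numbered libraries had correlations of -0.17, -0.11 and -0.13 in their deviations from the group means. Such deviations are tied to each other within a group, so these values cannot settle whether same-numbered libraries share more than a number. Against no rescaling, upper-quartile scaling moved the median of all genes by -0.04. The count tests planned were not run. With 3 libraries a group, the interval of Ltbp2 held log2 differences of up to 1.43, and no limit of detection was computed.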
